A study of Homo sapiens with 6 samples.

Results

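Neuroglobin (NGB, ENSG00000165553) and cytoglobin (CYGB, ENSG00000161544), the nonerythroid globins named for nervous tissue and for their wide spread among cell types, were followed as 2 genes of the 57773 in the deposited count table. Both were found by their symbols, and both had reads. They were taken up after results of these same dishes were known: NGB had one of the largest decreases between PD-L1 and Vector dishes. Their difference between the groups is therefore given as a description, without a test. The cells were U251, an established human glioblastoma line, made into stable lines with a lentivirus that carried either PD-L1, the immune checkpoint ligand encoded by CD274, or the empty vector. Each line was sampled as 3 dishes, 12 h after replating in 10% serum, at passages 5 to 10. Each line is a single stable line, so the spread between dishes does not cover the spread between independent transductions.

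Globins hold oxygen, nitric oxide and other small ligands at the iron of a heme group. Neuroglobin is best known from neurons and the retina, where it has been tied to protection from low oxygen and to binding of cytochrome c. Cytoglobin is best known from fibroblasts, pericytes and the stellate cells of the liver. It consumes nitric oxide and is kept in its reduced state by cytochrome b5 and its reductase. Oxygen sensing runs through the hypoxia-inducible factors, whose alpha subunits HIF1A and EPAS1 are marked for destruction by prolyl hydroxylases when oxygen is plentiful.

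Total counts ranged from 15678989 to 22270509 per dish. CD274 was at 22001 to 26827 reads in PD-L1 dishes and at 34 to 71 in Vector dishes, in keeping with the labels. PD-L1 dish 3 stood apart over the tested genes: the chi-square of its counts per degree of freedom (1 for sampling noise alone) was 16.1 and 14.8 against PD-L1 dishes 1 and 2, which differed from each other by 3.02. The Vector pairs lay at 5.25 to 10.1. As the dishes of a group came from 1 line, p-values measure only the spread between these dishes.

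NGB lies on chromosome 14 and CYGB on chromosome 17, both on the minus strand. The start of NGB is shown because it was the globin whose level differed. The RefSeq window runs from 250 bases before to 50 bases after the NGB start, at chr14:77271157-77271456 on the minus strand of GRCh38.p14, written 5′ to 3′ with capitals marking GGGCGG, the core of the GC box bound by SP1-type factors:
NGB promoter: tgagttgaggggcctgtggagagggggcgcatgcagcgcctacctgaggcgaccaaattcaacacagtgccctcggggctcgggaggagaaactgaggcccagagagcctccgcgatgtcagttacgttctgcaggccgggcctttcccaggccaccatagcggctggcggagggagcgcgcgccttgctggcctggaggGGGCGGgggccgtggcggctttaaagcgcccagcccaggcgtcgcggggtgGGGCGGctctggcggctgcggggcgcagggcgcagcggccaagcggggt
The window had 71.3% G and C, above 82.7% of the 35116 RefSeq windows of this length, whose median was 58.7%. It held 28 CG dinucleotides against a median of 14. GGGCGG, searched on both strands, matched 2 times, and 45.0% of all windows held at least 1 match. ACGTG and GCGTG, the core letters of hypoxia response elements, had 0 matches each, while 21.4% and 36.5% of all windows held them. TATAAA (11.5% of windows) and TGACGTCA, the cyclic AMP response element (1.85%), also had 0 matches, and no matches of different motifs overlapped. These are matches of letters in 1 window. The RefSeq table used here was matched for NGB alone of the pair.

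NGB was well expressed, and it was lower in every PD-L1 dish than in any Vector dish. Its raw counts were 1576, 1239 and 1183 in Vector dishes 1 to 3, and 433, 344 and 507 in PD-L1 dishes 1 to 3. Scaled to counts per 1000000 reads of TMM-adjusted library size (CPM), these were 72.5, 60.6 and 63.7 CPM in the Vector dishes. The PD-L1 dishes held 21.1, 21.2 and 27.1 CPM. The groups did not overlap, and the lowest Vector dish was 2.23 times the highest PD-L1 dish. PD-L1 dish 3 was the highest of its group, at 41.4% of the Vector mean, against 32.2% and 32.3% in dishes 1 and 2. The mean fell from 65.6 ± 6.21 CPM to 23.2 ± 3.45 CPM (SD, n = 3 each), a log2 fold change of -1.50 ± 0.11 (SE), or 2.83-fold. Among the 11395 tested genes with a mean of at least 5 CPM, 1 gene had a lower log2 fold change, which is the kind of value NGB was chosen by. In the authors' normalized table NGB stood at 1404, 1160 and 1224 in the Vector dishes and 404.2, 406.3 and 520.5 in the PD-L1 dishes.

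The spread of NGB between dishes exceeded counting error. The coefficient of variation was 9.46% among Vector and 14.9% among PD-L1 dishes, whereas the counts alone would give 2.52% in the dish with most NGB reads and 5.39% in the dish with fewest. Without PD-L1 dish 3 the log2 fold change of NGB was -1.63. In bulk RNA of this kind, fewer cells with NGB transcripts and less NGB RNA per cell cannot be told apart.

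CYGB was at the edge of detection. Its raw counts were 3, 2 and 4 in Vector dishes 1 to 3 and 6, 2 and 4 in PD-L1 dishes 1 to 3. The corresponding levels were 0.138, 0.0978 and 0.215 CPM, and 0.293, 0.123 and 0.214 CPM. The groups overlapped, with means of 0.150 ± 0.0597 CPM with Vector and 0.210 ± 0.0848 CPM with PD-L1 (SD, n = 3 each). In 2 of the 6 dishes the count was below 3, the floor used here, which corresponds to 0.138 to 0.185 CPM. CYGB did not pass the filter on low counts and was not fitted. Summed over dishes, 12 PD-L1 against 9 Vector reads gave a ratio of 1.46 after library scaling, with an exact 95% interval (Clopper-Pearson on the split of the reads) of 0.566 to 3.93. That interval covers counting error only, and it spans both a decrease and a more than 3-fold increase, so a difference was not detectable at this depth.

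**Figure D1:**
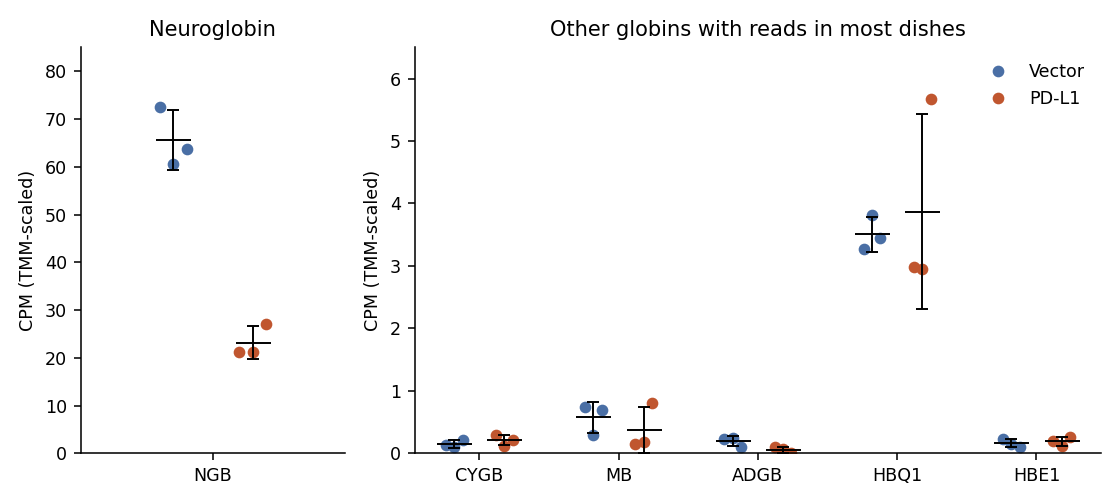
CPM of NGB (left) and of the other globins with reads in at least 5 dishes (right; note the smaller scale) in Vector and PD-L1 dishes. Points are dishes and bars are mean ± SD of 3 dishes. The Vector dishes of NGB lie between 60.6 and 72.5 CPM and the PD-L1 dishes between 21.1 and 27.1 CPM, while CYGB stays under 0.3 CPM in each dish.

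Divided by exon length (GENCODE 29, 1884 bases for NGB and 2949 for CYGB), NGB reached 34.8 ± 3.29 CPM per kb in Vector and 12.3 ± 1.83 CPM per kb in PD-L1 dishes. On that scale it ranked 1228, 1510 and 1388 of 17739 protein-coding genes with a read in Vector dishes 1 to 3. In PD-L1 dishes 1 to 3 it ranked 3927, 3960 and 3284. NGB thus lay above 91.5 to 93.1% of protein-coding genes in Vector dishes and above 77.7 to 81.5% in PD-L1 dishes. CYGB, at 0.0510 CPM per kb in Vector and 0.0712 CPM per kb in PD-L1 dishes, lay above 14.3 to 22.4% of them. Per length, NGB was 683 times CYGB in Vector and 173 times CYGB in PD-L1 dishes, ratios that rest on the few CYGB reads.

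**Figure D2:**
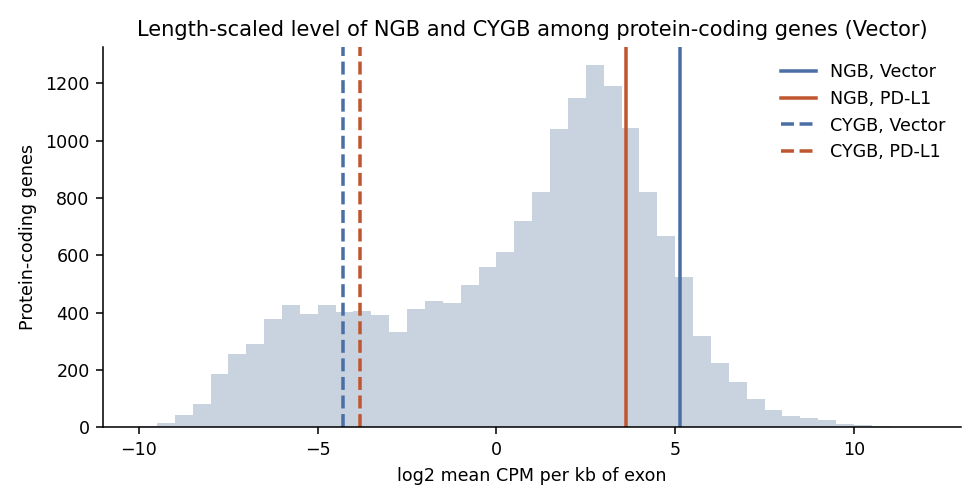
Distribution of protein-coding genes by log2 mean CPM per kb of exon in Vector dishes (bars), with the means of NGB (solid lines) and CYGB (dashed lines) in Vector and PD-L1 dishes. NGB moves from 34.8 to 12.3 CPM per kb, from the upper shoulder towards the main peak, and CYGB sits in the low mode at 0.0510 and 0.0712 CPM per kb.

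No other globin came near NGB. Of 12 further family members, 2 passed the filter on low counts, and 0 of these changed in edgeR's quasi-likelihood test (false discovery rate, FDR, under 0.05), and 0 at an unadjusted p under 0.05. DESeq2 did not call HBQ1 either, and gave MB no adjusted p. Over all 15818 genes tested, 8.75% were called, 7.2% lower and 1.55% higher in PD-L1 dishes. HBQ1, the theta chain of the alpha-globin cluster, had 71, 78 and 64 reads in Vector dishes and 61, 48 and 106 in PD-L1 dishes. It was at 3.51 ± 0.28 CPM with Vector and 3.87 ± 1.56 CPM with PD-L1 (log2 fold change 0.14 ± 0.24, edgeR adjusted p = 0.756), with PD-L1 dish 3 above the rest. Without that dish its log2 fold change was -0.24 (adjusted p = 0.418). MB, the muscle oxygen store myoglobin, had 16, 6 and 13 reads in Vector dishes and 3, 3 and 15 in PD-L1 dishes (log2 fold change -0.60 ± 0.57, edgeR adjusted p = 0.569). Here too PD-L1 dish 3 was the highest of its group, and without it MB passed the test at a log2 fold change of -1.78 (adjusted p = 0.0496). ADGB, the large globin-domain protein androglobin, had 0 to 5 reads per dish, and the embryonic chain HBE1 had 2 to 5. HBB, HBD, HBG2 and HBZ had 0 to 2 reads per dish, too few to compare. HBA1, HBA2, HBG1 and HBM had 0 reads in all 6 dishes, which allows up to 0.0258 CPM over the 6 dishes together. HBA1 with HBA2, and HBG1 with HBG2, are near-identical copies, so their counts are uncertain.

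Because the library kit does not mark strand, reads of genes that overlap on opposite strands cannot be separated, and the genes around NGB and CYGB were examined next. NGB shares 73 of its 1884 exonic bases (3.87%) with MIR1260A, a microRNA gene on the other strand. Its mature product, with the seed (bases 2 to 8) in capitals, lies at chr14:77266231-77266248 on the plus strand of GRCh38.p14 (RefSeq) and is shown to identify this overlapping gene:
hsa-miR-1260a: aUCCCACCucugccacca
MIR1260A had 0 reads in all 6 dishes. How reads in the shared bases were counted is not given in the sources used here. That 0 therefore cannot show whether the NGB counts include reads from the other strand. The next gene towards lower coordinates, TMEM63C, an osmosensitive channel, was at 4.75 ± 0.68 CPM with Vector and 4.76 ± 0.86 CPM with PD-L1 (log2 fold change -0.0054 ± 0.18, edgeR adjusted p = 0.990). This value changed sign with upper-quartile scaling (0.027) and with an offset for GC content and length (0.12). The pseudogene FAM204DP beyond it had 0 reads. On the other side POMT2, a protein O-mannosyltransferase, was at 40.5 ± 1.34 and 37.7 ± 4.0 CPM (log2 fold change -0.10 ± 0.09, adjusted p = 0.527). GSTZ1, a glutathione transferase of tyrosine breakdown, was at 24.0 ± 1.79 and 24.1 ± 1.46 CPM (log2 fold change 0.0051 ± 0.10, adjusted p = 0.981). In these 3 genes the dishes of the groups overlapped. None of them passed the test in any of the alternatives run for it. NGB, which was chosen with this contrast known and was not tested, lay at -1.63 to -1.41 in its own alternatives.

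CYGB shares 550 of its 2949 exonic bases (18.7%) with exons of other genes in GENCODE 29, chiefly with PRCD on the opposite strand (248 bases) and with ENSG00000267546 on the same strand (302 bases). PRCD, a photoreceptor disc protein, had 3, 4 and 5 reads in Vector and 8, 5 and 3 in PD-L1 dishes. ENSG00000267546 had 1 to 10 reads per dish, and ENSG00000267543, which shares no exonic base with CYGB, had 0 to 2. The few reads of CYGB therefore lay among partners as sparse as itself, and how reads in shared exons were counted is not given in the sources used here. Of the flanking genes, AANAT had 3 to 6 reads per dish and the small nucleolar RNA SNORD1B had 1 read in all. RHBDF2, an inactive rhomboid that regulates shedding of cell-surface proteins, was at 17.9 ± 0.90 CPM with Vector and 14.5 ± 1.46 CPM with PD-L1 (log2 fold change -0.30 ± 0.11, adjusted p = 0.101; 0.0249 without PD-L1 dish 3). The noncoding RNA SNHG16 fell from 88.7 ± 6.32 to 72.8 ± 4.80 CPM, by 0.29 ± 0.08 on the log2 scale (edgeR adjusted p = 0.0452). That call was lost in 8 of 13 alternatives, among them 5 of the 6 fits that each left out 1 dish, with adjusted p up to 0.198.

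**Figure D3:**
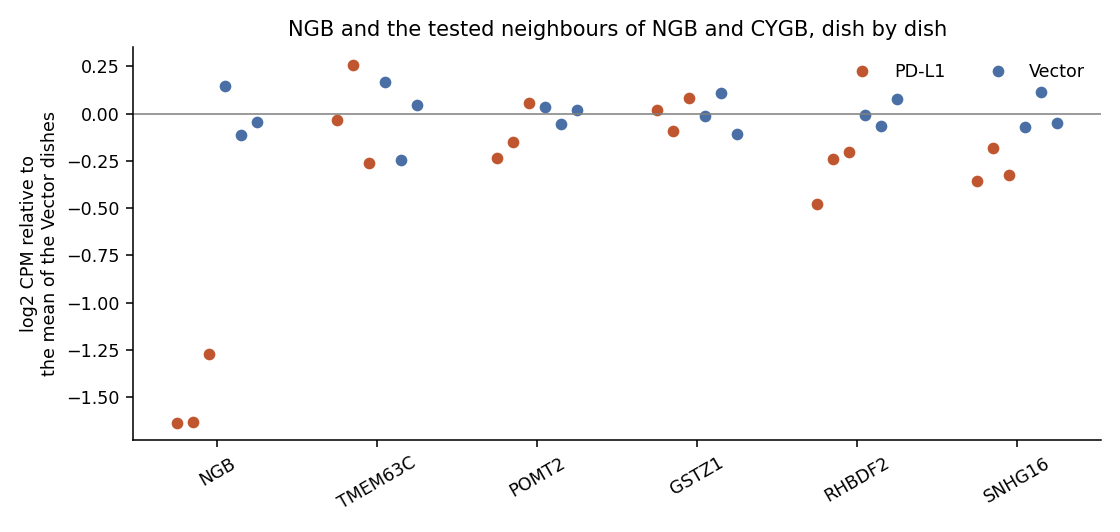
log2 CPM of NGB and of the tested genes beside NGB (TMEM63C, POMT2, GSTZ1) and CYGB (RHBDF2, SNHG16), each relative to the mean of its Vector dishes. Each point is 1 dish. The PD-L1 dishes of NGB lie more than 1 log2 unit under the Vector mean, and those of the other genes within 0.5 of it.

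Genes that make, carry or act with globins were then read from 10 lists. Of 130 distinct tested genes other than NGB and CYGB, 9 fell and 1 rose in PD-L1 dishes, so 7.69% were called against 8.75% of all genes. The median log2 fold change was -0.02, beside 0.02 over all tested genes. Thus the lists together were called at about the background share. That count moved with single dishes: 5 fell without PD-L1 dish 1 or Vector dish 1 and 14 without Vector dish 2. Over all genes, 595 were lower without PD-L1 dish 1, 510 without Vector dish 1 and 1039 without Vector dish 2, against 1139 with all dishes. Without Vector dish 2 the listed count thus rose while the count over all genes fell. Without PD-L1 dish 3, 25 fell and 4 rose, where 13.8% of all 16272 tested genes were lower and 7.81% higher.

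Of 11 tested genes of heme synthesis 0 passed in edgeR (1 at an unadjusted p under 0.05, 0 in DESeq2), with a median log2 fold change of 0.07. With 8.75% called over all tested genes, 0 of 11 differs little from the background share. CPOX, coproporphyrinogen oxidase, was at 121.6 ± 7.88 CPM with Vector and 130.5 ± 4.69 CPM with PD-L1, and TMEM14C, a mitochondrial porphyrin carrier, at 151.6 ± 8.03 and 164.8 ± 18.9 CPM. In heme transport and breakdown 0 of 11 passed in edgeR (2 at an unadjusted p under 0.05). PGRMC1, a heme-binding membrane protein, was at 319.8 ± 8.40 and 340.1 ± 5.22 CPM. LRP1, the receptor that takes up heme bound to hemopexin, was at 115 ± 30.9 and 79.2 ± 5.44 CPM (adjusted p = 0.0937). LRP1 was the gene of this list called by DESeq2 (adjusted p = 0.00777), and its adjusted p over 13 alternatives ranged from 9.04e-06 to 0.310. In this list 2 genes were called lower without a low-count filter and 2 under a replicate block, 1 was lower without Vector dish 2, and 1 was lower and 1 higher without PD-L1 dish 3.

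In the list of cytochrome b5 and heme-protein reductases, NQO1 alone of 8 tested genes passed, where 8.75% of all tested genes were called. NQO1, a quinone reductase, held 119, 118 and 102 CPM in Vector and 65.0, 69.0 and 85.4 CPM in PD-L1 dishes. It fell by 0.63 ± 0.10 on the log2 scale (edgeR adjusted p = 0.00186) and was called in 13 of 13 alternatives. CYB5R3, the cytochrome b5 reductase, chosen after its value was seen, was at 324.5 ± 20.5 and 266.7 ± 24.8 CPM (adjusted p = 0.0522) and passed in DESeq2. Of 18 tested genes of nitric oxide and cyclic GMP 0 passed in edgeR (3 at an unadjusted p under 0.05, and 0 in DESeq2, which gave NOSTRIN no adjusted p). ADH5, which removes S-nitrosoglutathione, was at 140.1 ± 8.89 and 134.3 ± 10.3 CPM, and NOSIP, a nitric oxide synthase binding protein, at 101.7 ± 7.42 and 87.8 ± 13.6 CPM. Without PD-L1 dish 3, 1 gene of this list was higher and 4 were lower, NOSIP among the latter with an adjusted p of 0.00184. Of 28 antioxidant enzymes and regulators GPX3, a secreted glutathione peroxidase, was the 1 that changed. It rose from 28.8 ± 1.68 to 35.8 ± 1.79 CPM, by 0.31 ± 0.09 (edgeR adjusted p = 0.0375). The call on GPX3 was lost in 6 of 13 alternatives, with adjusted p up to 0.176.

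**Figure D4:**
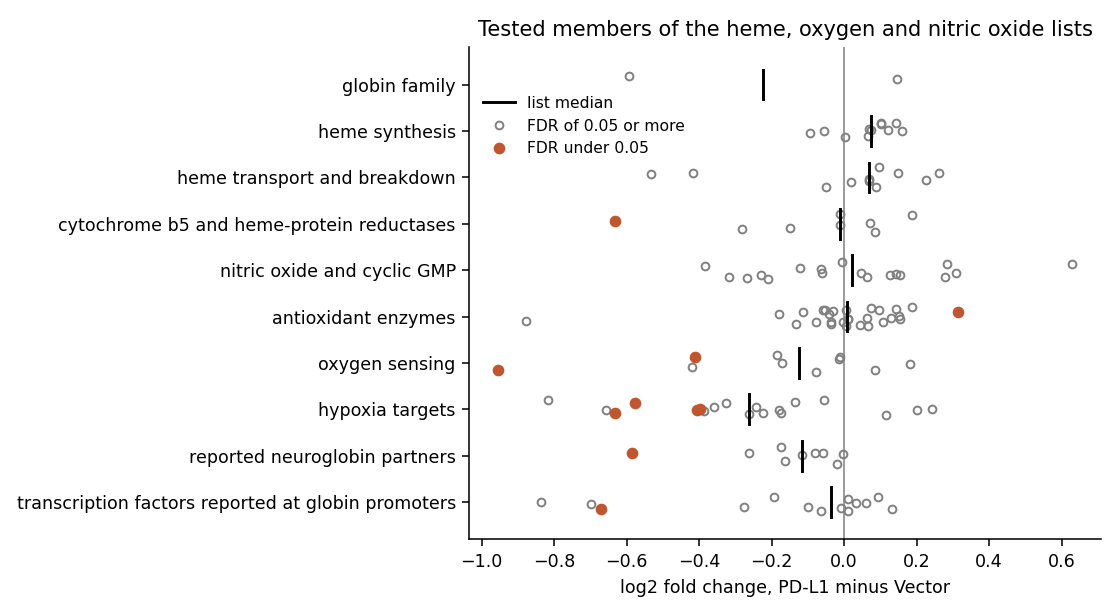
log2 fold change (PD-L1 minus Vector) of the tested members of the 10 lists, without NGB and CYGB. Filled points had an FDR under 0.05, open points did not, and vertical bars are list medians. The called genes are 9 lower and 1 higher, and the list of hypoxia targets has the most called genes, 4 of 19.

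In the oxygen-sensing list the transcripts of both main alpha subunits of the hypoxia-inducible factors fell, 2 of 10 tested genes (20.0%), with 0 higher. The data hold RNA only, so the proteins were not measured. Over all tested genes 7.2% were lower and 1.55% higher. EPAS1 held 57.0, 40.0 and 50.2 CPM in Vector and 23.8, 27.2 and 25.2 CPM in PD-L1 dishes. It fell by 0.95 ± 0.12 on the log2 scale (edgeR adjusted p = 2.89e-04), or 1.94-fold. HIF1A held 199, 177 and 187 CPM in Vector and 146, 141 and 136 CPM in PD-L1 dishes. It fell by 0.41 ± 0.07 (adjusted p = 0.00376), or 1.33-fold. In both genes the groups did not overlap, which also held for VHL, higher in PD-L1 dishes and not called (edgeR adjusted p = 0.126). EPAS1 and HIF1A were called in 13 of 13 alternatives. The median of the list was -0.12.

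Of 19 hypoxia targets 4 fell (21.1%, against 7.2% of all tested genes) and 0 rose. At an unadjusted p under 0.05, 5 were lower and 2 higher. LDHA and PDK1 had log2 fold changes of 0.24 and 0.20 (edgeR adjusted p = 0.121 and 0.155). The list median was -0.26 on the log2 scale. SLC2A1, the glucose transporter GLUT1, held 229, 163 and 228 CPM in Vector and 118, 148 and 149 CPM in PD-L1 dishes (log2 fold change -0.58 ± 0.13, edgeR adjusted p = 0.0141). P4HA1 and P4HA2, collagen prolyl hydroxylase subunits, were 1.32-fold and 1.33-fold lower (adjusted p = 0.0289 and 0.0476). CA12, a membrane carbonic anhydrase, was 1.55-fold lower (adjusted p = 0.0468). In P4HA2 PD-L1 dish 3 (49.8 CPM) lay above Vector dish 2 (49.1 CPM), and the other 3 did not overlap. Nor did the groups overlap in LDHA and PDK1, which were not called. The share of all tested genes without overlap was not counted. These calls were less firm than those on EPAS1 and HIF1A: SLC2A1 was lost in 4, P4HA1 in 5, CA12 in 7 and P4HA2 in 8 of 13 alternatives, with adjusted p up to 0.148, 0.176, 0.207 and 0.260. The number of targets called lower was 0 without PD-L1 dish 1 or Vector dish 1, 1 without PD-L1 dish 2 or Vector dish 3, 1 with the offset for GC content and length, and 2 with upper-quartile scaling. It was 5 in DESeq2 and without PD-L1 dish 3, and 6 without a low-count filter and without Vector dish 2.

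The hypoxia targets also varied within the groups. Their list median relative to the Vector mean was 0.17, -0.23 and 0.03 in Vector dishes 1 to 3, and -0.52, -0.28 and -0.07 in PD-L1 dishes 1 to 3. NGB on the same scale was 0.15, -0.11 and -0.04 in Vector and -1.63, -1.62 and -1.27 in PD-L1 dishes. Vector dish 1 was the highest and Vector dish 2 the lowest of its group in both. That order was not particular to them. It also held in the medians of oxygen sensing (0.10, -0.09 and 0.04) and of pericyte and fibroblast markers (0.29, -0.33 and -0.05). In heme synthesis (0.004, 0.036 and -0.039) it did not. In the targets PD-L1 dish 3 lay above Vector dish 2, whereas in NGB it lay more than 1 log2 unit below it. Whether oxygen supply differed between dishes was not tested.

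Of 9 reported partners of neuroglobin GNAI2, an inhibitory G protein alpha subunit, was the 1 that changed, where 8.75% of all tested genes were called. GNAI2 held 282, 238 and 234 CPM in Vector and 151, 158 and 193 CPM in PD-L1 dishes, and fell by 0.59 ± 0.10 on the log2 scale (edgeR adjusted p = 0.00279). It was called in 13 of 13 alternatives. CYCS, cytochrome c, chosen after its value was seen, was at 575.8 ± 38.0 and 514.7 ± 53.7 CPM (adjusted p = 0.293). The list median was -0.12, and without PD-L1 dish 3 5 members were lower. Among 14 tested transcription factors with reported action at globin promoters ETS1 was the 1 that changed, a count near the background share. ETS1, an ETS-domain factor, held 57.8, 49.3 and 52.6 CPM in Vector and 32.3, 33.8 and 34.3 CPM in PD-L1 dishes. It fell by 0.67 ± 0.09 (edgeR adjusted p = 3.92e-04) and was called in 13 of 13 alternatives. SP1, whose family binds GC boxes such as those capitalised in the NGB window, was at 120.1 ± 7.17 and 125.2 ± 10.4 CPM (adjusted p = 0.697). ESR2, an estrogen receptor, was at 0.764 ± 0.47 and 0.752 ± 0.43 CPM (adjusted p = 0.996). SP1 and ESR2 were chosen after their values were seen.

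**Figure D5:**
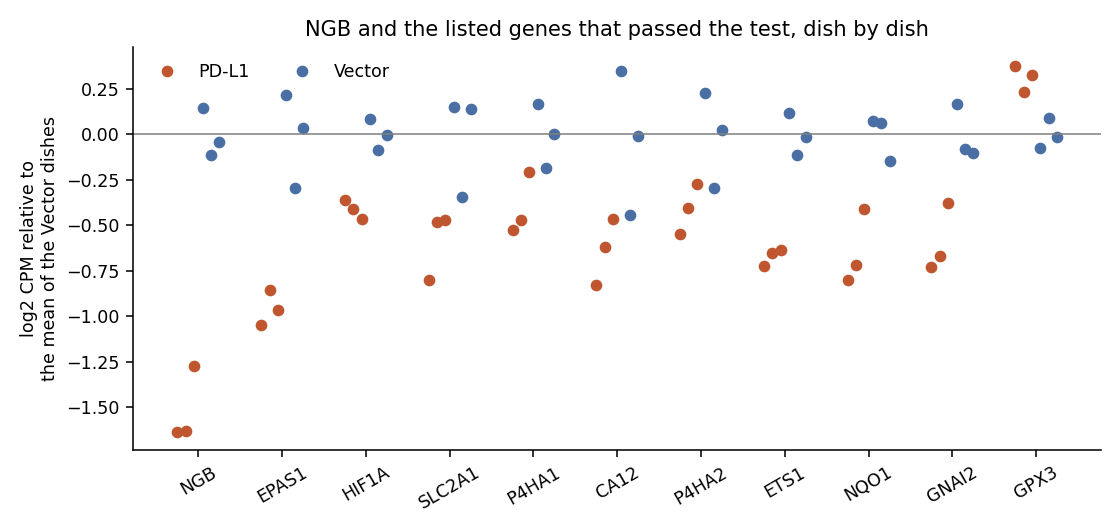
log2 CPM of NGB and of the 10 listed genes that passed the test, each relative to the mean of its Vector dishes. Each point is 1 dish. NGB has the lowest PD-L1 dishes, EPAS1 follows at about 1 log2 unit under the Vector mean, and GPX3 is the 1 gene that is higher.

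The dish profile of NGB was most like those of TNS1, MDFI, THBS2, MMP14 and FBN1, by the smallest root mean square difference of log2 CPM relative to the Vector mean over the 6 dishes. The differences were 0.0977, 0.135, 0.144, 0.153 and 0.175 log2 units, against a median of 1.08 over the 11394 genes compared. TNS1, the focal-adhesion protein tensin-1, was at 13.6 ± 1.55 CPM with Vector and 5.06 ± 1.07 CPM with PD-L1. THBS2, thrombospondin-2, was at 23.4 ± 3.69 and 9.24 ± 2.05 CPM, with PD-L1 dish 3 the highest of its group. That order held in 4 of the 5 genes, and in FBN1 PD-L1 dish 2 was the highest. MDFI, an inhibitor of myogenic factors, MMP14, a membrane-bound metalloproteinase, and FBN1, the microfibril protein fibrillin-1, were at 19.4, 213 and 112 CPM in Vector and at 7.43, 84.5 and 43.1 CPM in PD-L1 dishes. Likeness here is set mostly by the size of the difference between the groups, and these genes share their dishes with NGB. For CYGB the nearest profiles were MTERF2, MARCHF3, PABIR3, RUNX1T1 and ATG16L2 (0.176 to 0.202 log2 units). At 2 to 6 reads per dish the CYGB profile is mostly counting error, and no likeness is read from it.

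Markers were examined for cell types known for these globins. The counts of called markers stand beside 7.2% lower and 1.55% higher over all tested genes. Neuron markers summed to 90.4 to 105.3 CPM in Vector and 96.4 to 100.4 CPM in PD-L1 dishes, mostly from NEFM, and 1 of 7 tested members, MAP2, fell, a call that was lost without PD-L1 dish 1 and without each of the Vector dishes. RBFOX3, a defining neuronal marker, was at 0.51 to 0.92 CPM in every dish and was not called (log2 fold change 0.25). The other tested neuron markers besides MAP2 were not called either. Their log2 fold changes were -0.94 (SNAP25, edgeR adjusted p = 0.0810), -0.33 (TUBB3), -0.03 (SYN1), 0.04 (NEFM) and 0.12 (SYT1). Pericyte and fibroblast markers, the cells cytoglobin is best known from, summed to 941 to 1430 CPM in Vector and 470 to 564 CPM in PD-L1 dishes. Of these, 5 of 9 tested members fell (PDGFRA, PDGFRB, DCN, COL1A1 and COL1A2) and 0 rose. The number lower was 3 without PD-L1 dish 1 or 2 and without Vector dish 1 or 3, where PDGFRA and PDGFRB were lost, and 3 with a mean of at least 5 CPM, where PDGFRB and DCN were not tested. COL1A1 and COL1A2 were called in all 13 alternatives. CYGB was at 0.293 CPM or less in each dish. The marker sum was made up mostly of the 2 type I collagen genes, and its part in the NGB difference was not tested. Astrocyte markers summed to 622 to 633 CPM in Vector and 628 to 652 CPM in PD-L1 dishes, mostly from GLUL (means of 465 and 504 CPM). Of these markers, 2 of 5 tested members, GFAP and GJA1, fell. GJA1 was lost in 6 alternatives (upper-quartile scaling, the replicate block, and without PD-L1 dish 1 or 2 and without Vector dish 1 or 3), and GFAP without Vector dish 1, which left 0 called. Erythroid markers summed to 0.488 to 1.11 CPM, with HBA1, HBA2 and AHSP at 0 reads. Endothelial markers (2 of 3 tested lower), microglia and leukocyte markers (1 of 2 lower) and oligodendrocyte markers (1 of 3 lower) summed to at most 5.98, 4.05 and 18.8 CPM in any dish. The endothelial call on KDR was lost without PD-L1 dish 1 or 2 and without Vector dish 1 or 3, and the oligodendrocyte call on MBP without PD-L1 dish 2 or Vector dish 2. DESeq2 gave no adjusted p for KDR, TEK, AIF1 and DCN, and these fell below a mean of 5 CPM.

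Calls over all genes were 82.3% lower, against 69.1% with the offset for GC content and length and 63.8% without PD-L1 dish 3. Without any 1 of the other dishes it was 88.7 to 93.6%.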

How the data were processed

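RNA from 6 dishes (3 PD-L1, 3 Vector) was sequenced from 3 µg of total RNA each after poly-T selection with a kit that does not mark strand, per the labels' protocols. The authors deposited a table of whole-number read counts by Ensembl gene ID and a table of normalized values, a signal scale. Each deposited signal value was the raw count over 1 size factor for its dish. The submitters' processing notes name CASAVA 1.8, STAR 2.5.1b, HTSeq 0.6.0 and hg19, whereas annotation, strand setting and ambiguous reads are not covered there.

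Raw counts were tested with edgeR 4.0.16 in R 4.3.3 (filterByExpr, TMM, robust quasi-likelihood F test, no covariates, Benjamini-Hochberg FDR under 0.05 over 15818 genes). Standard errors are the fold change over the root of F, and CPM uses TMM-scaled library sizes. Profiles and list medians per dish use log2 CPM with a prior count of 2. Alternatives were relative log expression and upper-quartile scaling, DESeq2 1.42.0, other filters (none, or a mean of 5 CPM or more), a block on the replicate number, omission of each dish in turn, and a GC and length offset (splines with 5 degrees of freedom per term). The fits were also run on simulated counts with known changes, the same spread for every gene and no outlying dish. The real dishes differ in this, so nothing about them is read from that run. Depths of 15678989 to 22270509 counts per dish put 3 counts at 0.138 to 0.185 CPM.

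Symbols came from a gene name table (51996 IDs) and GENCODE 29 (94 more). GENCODE 29 is on another build than the files and was used for names, lengths, GC content and overlaps. Neighbours were taken by order in the RefSeq gene table of GRCh38.p14. NEFL and PECAM1 had no matching ID. Named were NGB, CYGB, the other globins, their neighbours, up to 4 called members of each list by FDR or, where none passed, its 2 most abundant, detected markers, and the 5 genes of most similar profile. Members and lists were chosen with earlier results of these data known. Plots were made with Python 3.11.15 and matplotlib 3.10.9.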

Additional observations from a re-analysis of the deposited data

How the results depend on the processing

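NGB kept its direction in all 13 alternatives, between -1.63 and -1.41 on the log2 scale. With 1 dish left out it ranged from -1.63 to -1.42, and the log2 ratio of CYGB from 0.17 to 0.82. CYGB had no value under the block or the GC and length offset, which need a fit. Over all genes, 245 were higher and 1139 lower. The higher genes numbered 379 with upper-quartile scaling and 657 with the GC and length offset. With 1 dish left out, 35 to 1271 were higher and 510 to 2241 lower, the fewest without Vector dish 1 and the most without PD-L1 dish 3. Leaving out any 1 dish moved the higher count more than 1.5-fold, and PD-L1 dishes 1 to 3 and Vector dish 1 moved the lower count as much. The listed genes, 1 higher and 9 lower, were 0 higher without a low-count filter and under the replicate block, 3 higher with the offset, and 18 lower without the filter. With 1 dish left out 0 to 4 were higher and 5 to 25 lower. The 1 lower neighbour, SNHG16, was lost (0 lower) with upper-quartile scaling, with a mean of at least 5 CPM and under the replicate block, and 0 to 2 neighbours were lower with 1 dish left out. Log2 fold changes near 0 changed sign: TMEM63C to 0.027 with upper-quartile scaling, 0.12 with the offset and as high as 0.11 with 1 dish left out (from -0.14), GSTZ1 to -0.0011 in DESeq2, -0.013 without the filter and as low as -0.057 with 1 dish left out (up to 0.062), and HBQ1 to -0.24 without PD-L1 dish 3 (up to 0.31 in the other such fits). The cause of these shifts was not tested. Same-numbered dishes did not deviate together (correlations of -0.21, -0.051 and -0.19 for replicates 1 to 3), so no sign of pairing by number was seen. Whether same-numbered dishes shared a batch was not tested. Under the replicate block NGB was at -1.51, and 238 genes were higher and 1209 lower. Depth limits CYGB, whose interval by counting error spans ratios of 0.566 to 3.93, and the other globins with few reads.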
